A study of Mus musculus with 15 samples.

Results

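The constitutive proteasome genes and the genes of its activators were followed in whole mouse liver. The 38 genes were taken by name from the standard composition of the particle and all 38 were among the 37991 genes counted. All 38 passed the filter on low counts, with 183 to 8144 reads per gene and library, as did 14258 genes in all. RNA sequencing covered 3 groups of 5 female C57BL/6 mice on a chow diet: young WT mice aged 90 days, old WT mice aged 600 days, and old KO mice aged 600 days with a whole-body knockout of S6K1 (encoded by Rps6kb1), bred from heterozygous parents. No young KO group was analysed here, so genotype was compared at 600 days alone. Rps6kb1 itself was measured at 33.3 to 41.4 CPM (counts scaled to a common library size) in young WT, 34.6 to 45.4 CPM in old WT and 15.2 to 20.8 CPM in old KO livers. Every library matched the genotype in its label, while these values cannot check the age. Total counts per library ranged from 21801754 to 38065359. Old KO 6 stood nearer to young WT than the other old KO libraries on many of these genes, and the main results of the old KO group are also given without it. Hepatocyte marker transcripts summed to 85975 CPM or more in every library, and none of the 8 was at 0 in all libraries.

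The 26S proteasome degrades proteins that carry ubiquitin chains. Its 20S core is a barrel of alpha and beta rings, in which the beta subunits Psmb5, Psmb6 and Psmb7 carry the proteolytic sites. The 19S cap is built from a base, with a ring of ATPases that unfold the substrate, and a lid that removes ubiquitin. The core can also be capped by PA28, made of Psme1 and Psme2 or of Psme3 alone, or by PA200 (Psme4). Interferon induces replacement beta subunits, Psmb8, Psmb9 and Psmb10, which take the place of Psmb5, Psmb6 and Psmb7 to form the immunoproteasome, which is most abundant in immune cells, while hepatocytes carry mainly the constitutive form. Transcription of the constitutive subunits is known to be raised together by the factor NRF1 (Nfe2l1) through antioxidant response elements when proteasome activity is low.

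Of the 38 genes, 31 encode subunits of the 26S particle, 3 encode chaperones that assemble the 19S base and 4 encode activators. In young WT liver, levels per kilobase of exon spread from 6.02 CPM per kb for the chaperone gene Psmd10 to 97.6 CPM per kb for Psmb1, followed by Psmb7 (92.4 CPM per kb), Psmc1 (85.8 CPM per kb) and Psma6 (85.3 CPM per kb). Of the inducible subunits, Psmb8 was at 3.54 CPM per kb, below all 38, and Psmb10 at 7.8 CPM per kb, between Psmd10 and Psmd5 (8.62 CPM per kb). Lengths were those of all annotated exons of a gene joined (2736 bases for Psmb8, 1469 for Psmd10), so these ranks depend on the annotation. Without division by length, Psmb8 in young WT was at 9.69 CPM, above Psmd10 (8.84 CPM). Psmb9 was listed at 0 in all 15 libraries under both of its overlapping identifiers, and no value is given for it.

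Age was examined first. In old WT against young WT liver, 23 of the 38 genes fell, 2 rose and 13 did not pass the test (edgeR quasi-likelihood test, adjusted p threshold 0.05 over all 14258 genes). Among all genes tested, 8.91% fell and 9.92% rose in the same comparison. The fallen genes were nearly all subunits of the 26S particle, of which 22 of 31 fell, none rose and all 31 had a fold change below zero. Their median log2 fold change was -0.35, against 0.01 over all genes tested, and -0.32 over all 38 genes. The genes that rose were Psme1 and Psme2, the subunits of the PA28 activator, which differ from the 26S genes in being inducible by interferon. In 16 of the 38 genes every old WT value lay below every young WT value, and in 0 every old WT value lay above, whereas groups separated downward in 5.67% and upward in 5.78% of all genes. In these bulk samples, fewer cells of a type and less RNA per cell cannot be told apart.

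**Figure D1:**
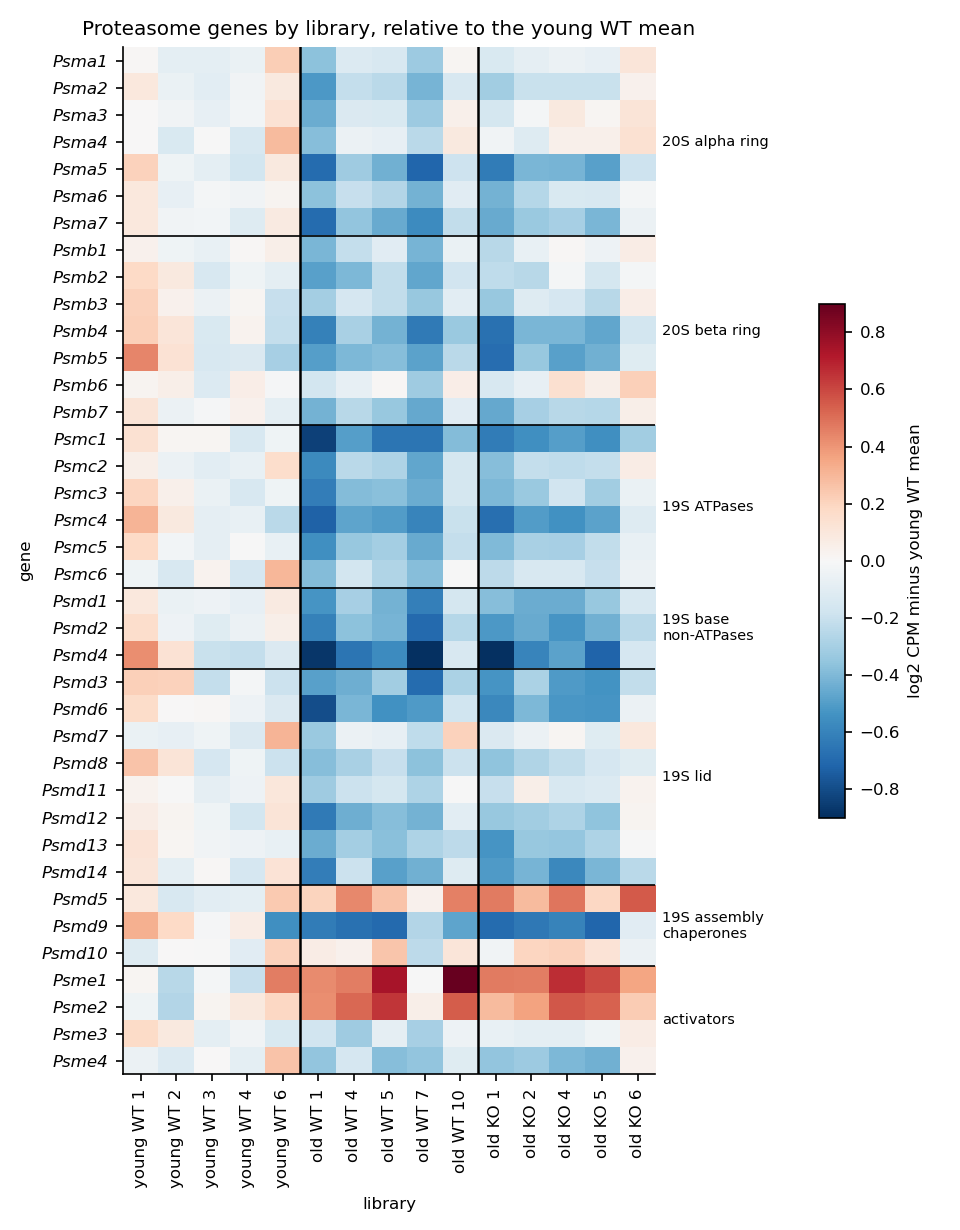
Each cell is the log2 CPM of a gene (rows, by role) in a library (columns) minus the mean of that gene over the 5 young WT libraries, with blue lower and red higher. The rows of the 26S subunits are mostly blue in both old groups, palest in old WT 10 and old KO 6, and the rows of Psme1, Psme2 and Psmd5 are mostly red.

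The fall was shared across subunits within each library. Averaged over the 31 subunits of the 26S particle, the level in old WT liver was 69.8, 81.8, 80.4, 72.2 and 91.4% of the young WT mean in libraries 1, 4, 5, 7 and 10. Young WT libraries lay between 95.2 and 110%, so that even the highest old WT library was below them. In old WT 1, 4 and 7 all 31 subunits were below their young WT mean, and in old WT 10 this held for 25. For 25 of the 31 subunits all 5 old WT libraries were below the young WT mean.

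The 17 subunits of the 19S cap included 14 that fell, with a median log2 fold change of -0.39, and the 14 subunits of the 20S core included 8 that fell, with a median of -0.29. Whether the cap and the core differed was not tested. All 3 non-ATPase subunits of the base fell, as did 5 of 6 ATPases, 6 of 8 lid subunits, 4 of 7 alpha subunits and 4 of 7 beta subunits.

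Psmc1 (chromosome 12: 101348396 to 101361574 on mm9) encodes Rpt2, an ATPase whose tail opens the gate of the core, and had the smallest adjusted p of the set. It was measured at 143, 132, 132, 118 and 127 CPM in young WT, 72.8, 92.5, 82.4, 82.6 and 99.3 CPM in old WT and 84, 88.7, 92.5, 88.6 and 105 CPM in old KO. The young and old values were apart in both old groups. The log2 fold change with age was -0.60 (SE 0.0891, adjusted p = 0.000638), or 34% lower.

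Among the other ATPases, Psmc5 (Rpt6) had 76.4, 66.4, 63.9, 67.3 and 64.4 CPM in young WT, 46, 53.2, 54.6, 49.4 and 58.2 CPM in old WT and 51.3, 55.1, 55, 58 and 64.4 CPM in old KO. Old WT livers were all below young WT livers, with a log2 fold change of -0.37 (SE 0.0802, adjusted p = 0.00552). Psmc3 (Rpt5), which also helps to open the gate, had 134, 121, 112, 106 and 114 CPM in young WT, 76.1, 89.2, 90, 85.7 and 105 CPM in old WT and 88.6, 93, 104, 94.4 and 112 CPM in old KO. Here too the old WT values lay below all young WT values, with a log2 fold change of -0.39 (SE 0.0935, adjusted p = 0.0092). Psmc4 and Psmc2 also fell, by 0.50 and 0.34 on the log2 scale (adjusted p = 0.0104 and 0.0218), while the change of Psmc6 was -0.24 (adjusted p = 0.0867).

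The base also holds the large scaffold subunits Psmd1 (Rpn2) and Psmd2 (Rpn1), the second of which docks shuttle factors and the deubiquitinase Usp14. Psmd2 had 214, 186, 178, 185 and 199 CPM in young WT, 126, 149, 144, 118 and 161 CPM in old WT and 134, 140, 133, 142 and 162 CPM in old KO. The log2 fold change with age was -0.47 (SE 0.0916, adjusted p = 0.00342), with no overlap of old and young values. Psmd1 had 190, 170, 172, 169 and 188 CPM in young WT, 123, 144, 132, 116 and 159 CPM in old WT and 136, 130, 130, 140 and 161 CPM in old KO. It fell by 0.40 on the log2 scale (SE 0.0908, adjusted p = 0.00733), again without overlap. Psmd4 (Rpn10), a ubiquitin receptor, had the largest fall of the set, -0.62 (SE 0.17, adjusted p = 0.0191) or 35% lower, but its values ran from 71.4 to 121 CPM in old WT and from 115 to 178 CPM in young WT, so that the groups overlapped through old WT 10.

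In the lid, Psmd6 (Rpn7) had 89.2, 79.9, 80.1, 77.3 and 72.8 CPM in young WT, 45.8, 59.9, 54.5, 56 and 70.5 CPM in old WT and 53.4, 60.2, 55.5, 55.1 and 77 CPM in old KO. The old WT libraries were all lower than the young WT libraries, and the log2 fold change was -0.48 (SE 0.115, adjusted p = 0.00976). Psmd3 (Rpn3) had 134, 133, 99.6, 114 and 101 CPM in young WT, 82.4, 85.2, 92.8, 71.5 and 94.8 CPM in old WT and 79.9, 94.6, 81.2, 79.5 and 99 CPM in old KO. Its groups did not overlap and the log2 fold change was -0.45 (SE 0.107, adjusted p = 0.00984). Psmd12, Psmd14, Psmd13 and Psmd8 fell by 0.39, 0.36, 0.33 and 0.30 on the log2 scale (adjusted p = 0.014, 0.0183, 0.0138 and 0.0271). Psmd14 (Rpn11) is the deubiquitinase that cuts ubiquitin chains off the substrate. The lid genes that did not pass were Psmd11 (-0.19, adjusted p = 0.0913) and Psmd7 (-0.09, adjusted p = 0.556).

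**Figure D2:**
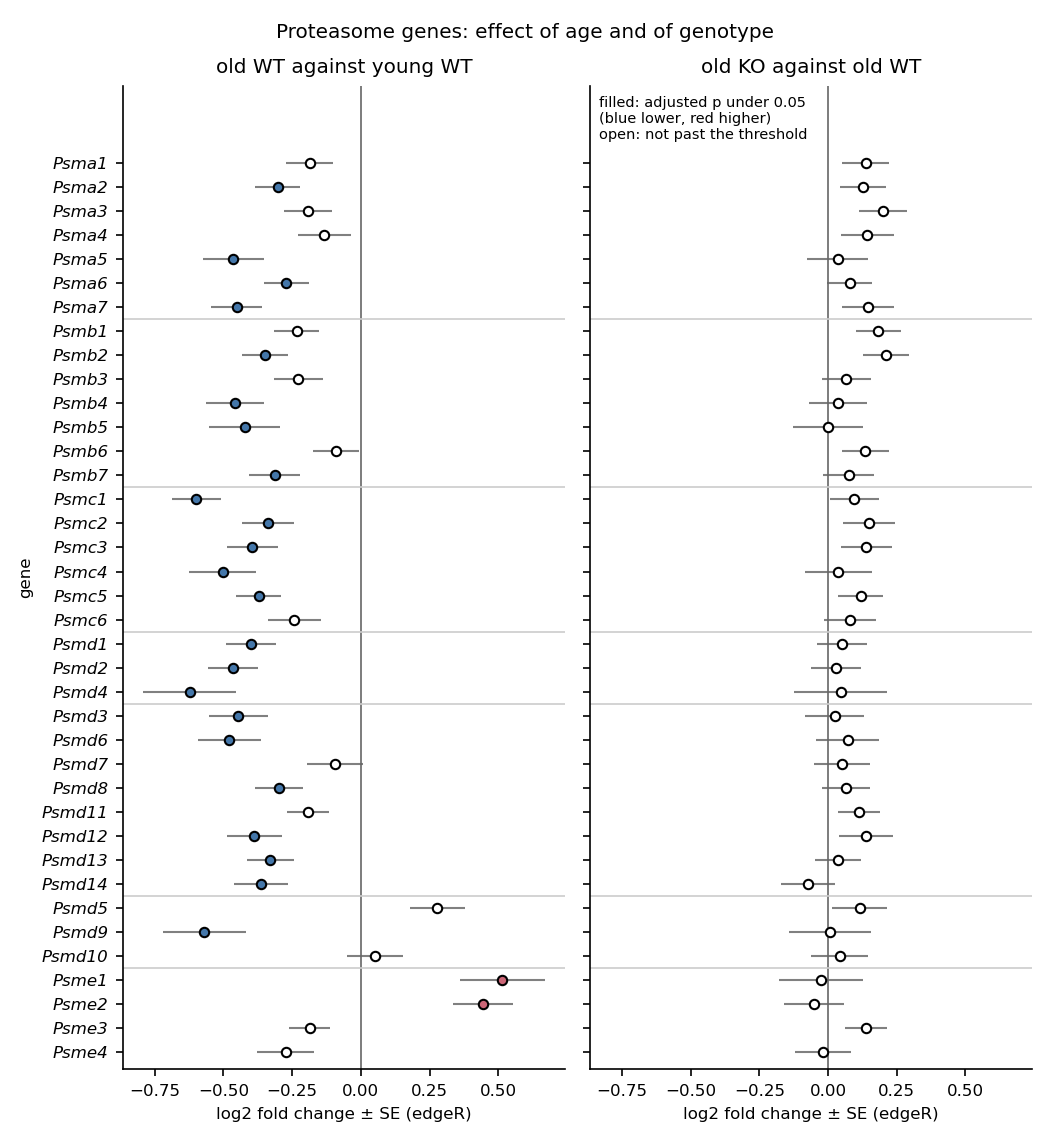
Log2 fold changes ± SE from edgeR are drawn for the 38 genes, old WT against young WT on the left and old KO against old WT on the right, with filled symbols where the adjusted p was under 0.05. On the left 23 symbols are filled blue and 2 red (Psme1 and Psme2), and on the right none is filled and 33 of 38 lie above zero.

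In the alpha ring, which gates entry to the core, Psma7 had 100, 91.3, 91.7, 86.2 and 98.6 CPM in young WT, 57.9, 72.9, 68.3, 63 and 80.1 CPM in old WT and 68.1, 74.1, 76, 70.3 and 89.9 CPM in old KO. Old and young WT values did not overlap, and the log2 fold change was -0.45 (SE 0.0935, adjusted p = 0.00438). Psma5 had 39, 32.8, 31.7, 30.1 and 35.9 CPM in young WT, 20.9, 27, 25, 20.6 and 29.6 CPM in old WT and 21.8, 25.4, 25.3, 24 and 29.6 CPM in old KO. The highest old WT library stood just under the lowest young WT library, and the log2 fold change was -0.46 (SE 0.111, adjusted p = 0.00957). Psma2 and Psma6 fell by 0.30 and 0.27 on the log2 scale (adjusted p = 0.0199 and 0.0309), while Psma1, Psma3 and Psma4 had changes of -0.19, -0.19 and -0.13 (adjusted p = 0.139, 0.138 and 0.357).

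The beta ring holds the active sites. Psmb5, the chymotrypsin-like subunit, had 67.7, 54.5, 45.2, 45.6 and 40.6 CPM in young WT, 35.4, 37.7, 38.2, 35.7 and 42.2 CPM in old WT and 31, 39.3, 35.5, 37 and 46.3 CPM in old KO. Young WT 1 was far above the rest, old WT 10 lay above young WT 6, and the log2 fold change was -0.42 (SE 0.128, adjusted p = 0.0307). The trypsin-like subunit Psmb7 fell by 0.31 on the log2 scale (adjusted p = 0.028), and the caspase-like subunit Psmb6 had a change of -0.09 (adjusted p = 0.48), with 77.1 to 87.7 CPM in young WT and 67.4 to 87.7 CPM in old WT. Of the subunits without an active site, Psmb4 had 125, 116, 98.1, 110 and 92.8 CPM in young WT, 70.7, 88.1, 80.4, 69.2 and 85.3 CPM in old WT and 67.8, 81.1, 81.2, 77.8 and 96.2 CPM in old KO. All old WT values were below the young WT values and the log2 fold change was -0.46 (SE 0.105, adjusted p = 0.0074). Psmb2 also fell (-0.35, SE 0.0848, adjusted p = 0.0106), and Psmb1 and Psmb3 had changes of -0.23 each (adjusted p = 0.0587 and 0.0847).

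Of the 3 chaperones of the 19S base, 1 fell. Psmd9 (p27) was at 32.2 to 58.8 CPM in young WT and 29 to 39.2 CPM in old WT, with overlap, and fell by 0.57 on the log2 scale (SE 0.15, adjusted p = 0.0161). Psmd5 (S5b) and Psmd10 (gankyrin) had positive log2 fold changes that did not pass (0.28 with adjusted p = 0.0626, and 0.05 with adjusted p = 0.76).

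Of the 4 activator genes, 2 rose with age and 0 fell. Psme1 (PA28 alpha) had 49.8, 41.4, 48.6, 42.8 and 67.9 CPM in young WT, 66.2, 67.7, 82.5, 49.1 and 92.2 CPM in old WT and 68.3, 67.8, 78.3, 74.4 and 63 CPM in old KO. Young WT 6 was the highest young library and old WT 7 the lowest old WT library, so that the groups overlapped. The log2 fold change was 0.51 (SE 0.154, adjusted p = 0.0291). Psme2 (PA28 beta), encoded beside it on chromosome 14 (56206278 to 56209950, against 56196960 to 56200366 for Psme1, mm9), had 29, 24.8, 30.3, 31.6 and 33.8 CPM in young WT, 39.8, 42.6, 46.4, 30.9 and 43.4 CPM in old WT and 36.3, 38.2, 43.8, 42.9 and 34.9 CPM in old KO. Old WT 7 again fell within the young range, and the log2 fold change was 0.44 (SE 0.109, adjusted p = 0.0111). Psme3 (PA28 gamma), the nuclear activator that interferon does not induce, had a change of -0.19 (adjusted p = 0.0963), and Psme4 (PA200) one of -0.27 (adjusted p = 0.0723).

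**Figure D3:**
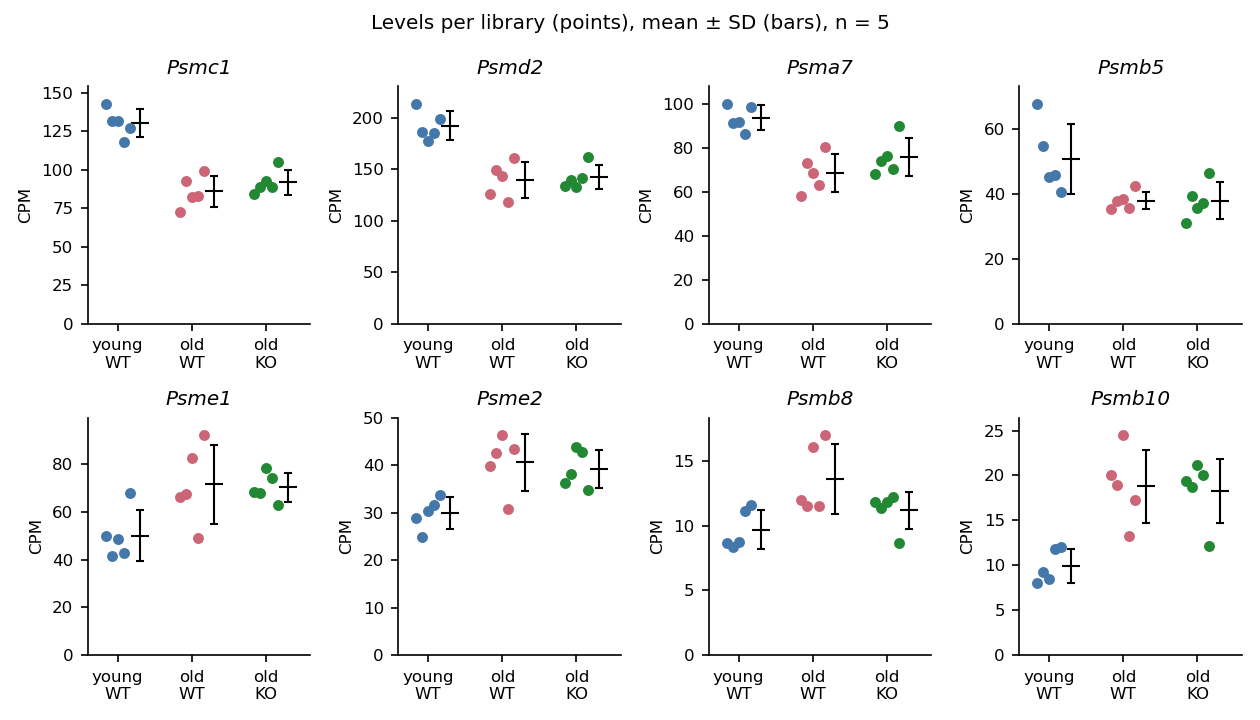
CPM of 6 proteasome genes and of the inducible subunits Psmb8 and Psmb10 are plotted for the 5 libraries of each group (points, in order of replicate number), with the mean ± SD beside them and each axis starting at 0. Psmc1, Psmd2 and Psma7 separate old WT from young WT, Psmb5, Psme1, Psme2 and Psmb8 overlap, and Psmb10 separates the WT groups upward.

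The calls differed in how far they rested on single libraries. Of the 25 called with age, 17 were called with each of the 10 libraries left out in turn. Psma2 did not pass without young WT 1 or old WT 1 (adjusted p = 0.0521 and 0.0522), and Psmd4 without the same libraries (0.0583 and 0.0505). Psmc2 was lost on omission of young WT 1 or of old WT 1 or 7 (0.0506 to 0.0568), and Psmd8 on omission of young WT 1 or 2 or of old WT 1, 4 or 7 (0.0564 to 0.0772). Psma6 was lost on omission of young WT 1 or 3 or of old WT 1, 4, 5 or 7 (0.0532 to 0.0758), and Psmb7 on omission of young WT 1, 3 or 4 or of old WT 1, 5 or 7 (0.0523 to 0.0714). For Psmb5, omission of young WT 1 or 2 or of old WT 1, 4, 5 or 7 gave an adjusted p of 0.0538 to 0.0853, and its fold change was -0.30 without young WT 1. For Psme1, omission of young WT 1, 2, 3 or 4 or of old WT 5 or 10 gave 0.0532 to 0.0757. Without old WT 10, Psma3, Psmb1, Psmc6 and Psmd11 passed as lower (adjusted p = 0.0479, 0.035, 0.0367 and 0.0419). Psmb3 passed as lower without young WT 6 (0.0356), and Psmd5 as higher without young WT 6 or old WT 7 (0.0198 and 0.0258).

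The sequences upstream of these genes were examined next, since so many of them moved together. RefSeq promoters (GRCm38.p6, 250 bases before to 50 after the start site) were matched for 32 of the 38 genes, not for Psmb1, Psmb2, Psmb7, Psmc3, Psmd3 and Psmd7. The 4 motifs were searched on both strands and were chosen with the expression values known. TGACNNNGC, the core of the antioxidant response element, was present in 18.8% of the matched proteasome genes and 14% of all 27025 genes. CCAAT, the NF-Y box, was present in 37.5% and 41.1%, and TTCNNNGAA, a STAT site, in 3.12% and 9.55%. The core of the interferon-stimulated response element, GAAA and GAAA separated by NN, was present in 12.5% (Psmb3, Psmd4, Psmd9 and Psme1) and 3.99%. Sequences are given for Psmc1, with the smallest adjusted p, for Psmb5, the active site gene that fell and holds an antioxidant response element core (Psmb6, which was not called, holds one too), for Psme1, the activator gene that rose and holds an interferon element core, and for Psmd9, which fell and holds both. They run from 250 bases before to 30 after the start site in the direction of the gene, with motif matches of either strand in capitals.
Psmc1 (chr12:100109952-100110231, plus strand): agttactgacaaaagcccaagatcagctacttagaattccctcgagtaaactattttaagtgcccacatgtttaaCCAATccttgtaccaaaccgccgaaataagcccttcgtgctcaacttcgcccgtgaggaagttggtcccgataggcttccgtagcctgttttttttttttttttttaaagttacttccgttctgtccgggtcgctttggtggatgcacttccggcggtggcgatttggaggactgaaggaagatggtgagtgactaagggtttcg
Psmb5 (chr14:54617966-54618245, minus strand): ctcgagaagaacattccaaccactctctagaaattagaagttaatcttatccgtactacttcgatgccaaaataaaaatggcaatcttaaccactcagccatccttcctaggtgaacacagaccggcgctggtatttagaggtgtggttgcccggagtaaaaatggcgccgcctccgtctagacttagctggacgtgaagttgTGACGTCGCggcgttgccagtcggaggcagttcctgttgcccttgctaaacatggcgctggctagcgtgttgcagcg
Psme1 (chr14:55578244-55578523, plus strand): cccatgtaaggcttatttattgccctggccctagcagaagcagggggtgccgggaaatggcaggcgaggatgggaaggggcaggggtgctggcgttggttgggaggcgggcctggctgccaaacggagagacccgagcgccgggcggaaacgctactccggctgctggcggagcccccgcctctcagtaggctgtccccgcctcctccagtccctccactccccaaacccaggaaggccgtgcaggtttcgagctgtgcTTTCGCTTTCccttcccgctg
Psmd9 (chr5:123227940-123228219, plus strand): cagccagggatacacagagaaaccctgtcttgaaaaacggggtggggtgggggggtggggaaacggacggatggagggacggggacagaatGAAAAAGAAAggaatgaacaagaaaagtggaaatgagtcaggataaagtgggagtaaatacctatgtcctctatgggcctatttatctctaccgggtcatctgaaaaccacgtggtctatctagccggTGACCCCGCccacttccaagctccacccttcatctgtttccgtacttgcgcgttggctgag
In Psmc1 the capitals mark CCAAT, 175 bases before the start site. In Psmb5 they mark the antioxidant response element core, 47 bases before it, and in Psme1 the interferon element core on the other strand, just after it. Psmd9 has the interferon element core 159 bases and the antioxidant response element core 31 bases before the start site. Of the 19 matched genes that fell, 3 held an antioxidant response element core, as did 3 of the 11 matched genes that were not called. The interferon element core was held by 2 of the 19 and by 1 of the 11. Psme2, the other gene that rose, was matched to promoters but held no interferon element core. A match is a run of letters and was not tested as a binding site.

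Genotype was examined in old mice. In old KO against old WT liver, 0 of the 38 genes passed (edgeR; 0 with DESeq2), against 0.533% of all genes in either direction, and 3 of 38 had an unadjusted p under 0.05, against 11.6% of all genes, so that the count is no result about these genes. The groups overlapped in all 38, whereas they separated in 3.2% of all genes. The median log2 fold change was 0.07 (0.03 without old KO 6), against 0.00 over all genes, and 33 of 38 lay above zero, within a range of -0.07 (Psmd14) to 0.21 (Psmb2). Without old KO 6, 23 of 38 lay above zero and 12 changed sign. Standard errors were 0.0757 to 0.169, so that log2 differences of about the size of the genotype median were within the error of a single gene.

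The lowest p-values of the set belonged to core subunits. Psmb2 had 69.1, 64.8, 55.2, 59.3 and 57.5 CPM in young WT, 43.4, 46.1, 52.4, 44.2 and 54.2 CPM in old WT and 52.1, 51.4, 60.1, 54.6 and 60.1 CPM in old KO. In 3 of the 5 old KO libraries it was above all old WT libraries, with a log2 fold change of 0.21 (SE 0.0849, adjusted p = 0.326). Psma3 had 101, 98.4, 95.9, 98.8 and 110 CPM in young WT, 73.9, 92.2, 91.4, 80.1 and 104 CPM in old WT and 90.2, 99.4, 107, 102 and 109 CPM in old KO. Its old groups overlapped, with a log2 fold change of 0.20 (SE 0.0877, adjusted p = 0.382). Psmb1 had 104, 98.5, 96.3, 102 and 105 CPM in young WT, 76, 87.1, 94.4, 75.7 and 96.9 CPM in old WT and 85.2, 96.7, 102, 97.9 and 106 CPM in old KO. Again the old groups overlapped, with a log2 fold change of 0.18 (SE 0.0825, adjusted p = 0.405). Psmc1 and Psmd2, which led the age comparison, had log2 fold changes by genotype of 0.10 and 0.03 (0.04 and -0.02 without old KO 6), and Psmb5, Psme1 and Psme2 had 0.00, -0.02 and -0.05 (-0.08, 0.01 and -0.01 without old KO 6). None of these passed (adjusted p = 0.75, 0.947, 0.999, 0.977 and 0.916).

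Set against young WT, old KO liver had 16 of the 38 genes lower, 3 higher (Psme1, Psme2 and Psmd5) and 19 not called, and this comparison shares its young WT libraries with that of age. Among all genes 11.3% were lower and 12% higher. Of the 26S subunits 14 of 31 were lower, with a median log2 fold change of -0.25. Averaged over those subunits, old KO libraries 1, 2, 4, 5 and 6 were at 75.3, 82.6, 83.5, 82.2 and 97.1% of the young WT mean, so that old KO 6 lay within the young range and the other 4 below it. Psmc1 had a log2 fold change of -0.50, Psmd2 -0.44, Psmb5 -0.42, Psme1 0.49 and Psme2 0.39 (adjusted p = 0.00129, 0.00353, 0.0255, 0.0306 and 0.0172). Psmd5 was at 26.6 to 34.6 CPM in young WT, 30.1 to 40.2 CPM in old WT and 33.4 to 43 CPM in old KO, and was higher in old KO than in young WT by 0.39 on the log2 scale (SE 0.1, adjusted p = 0.0107). Psmb5 did not pass in this comparison on omission of young WT 1 or 2 or of old KO 1, 4 or 5 (0.0525 to 0.0711), nor Psme1 on omission of young WT 1, 2, 3 or 4 or of old KO 4 or 5 (0.0586 to 0.0763). The count of 19 was 12 without young WT 1, and 22 without old KO 6, where Psmb7, Psmc3 and Psmd12 also passed as lower (-0.32, -0.31 and -0.33, adjusted p = 0.0143, 0.0323 and 0.0222). Old KO 6 was set apart for lying nearer to young WT, so its omission favours such calls.

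The balance between constitutive and inducible subunits was measured as a ratio within each library, which needs no scaling (log2 of CPM + 0.1, exact 2-sided permutation test, adjusted over 12 tests). Psmb8 had 8.69, 8.37, 8.74, 11.1 and 11.6 CPM in young WT, 12, 11.5, 16.1, 11.5 and 17 CPM in old WT and 11.8, 11.4, 11.8, 12.2 and 8.68 CPM in old KO. It rose with age (log2 fold change 0.49, SE 0.142, adjusted p = 0.024), though the call was lost on omission of young WT 1, 2 or 3 or of old WT 5 or 10 (0.0517 to 0.0695). Psmb10 had 8.06, 9.22, 8.48, 11.8 and 12 CPM in young WT, 20, 18.9, 24.5, 13.3 and 17.3 CPM in old WT and 19.4, 18.7, 21.2, 20.1 and 12.1 CPM in old KO. Every old WT library was above every young WT library, and the log2 fold change was 0.93 (SE 0.174, adjusted p = 0.00262). Neither differed between old KO and old WT beyond the threshold (-0.29 with adjusted p = 0.458, and -0.04 with adjusted p = 0.965), and without old KO 6 the differences were -0.21 and 0.08 (adjusted p = 0.598 and 0.898).

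The ratio of Psmb8 to Psmb5 was 1.84-fold higher with age in WT liver (exact permutation p = 0.00794, the smallest that 5 libraries against 5 allow, adjusted p = 0.0476), and per length it rose from 0.0676 ± 0.0216 to 0.121 ± 0.0173 (SD, n = 5). Psmb10 to Psmb7 was 2.34-fold higher (exact permutation p = 0.00794, adjusted p = 0.0476), from 0.0849 ± 0.0184 to 0.2 ± 0.0469 per length (SD, n = 5). For both ratios all old WT libraries were above all young WT libraries. The constitutive transcript remained the larger in every library, with a highest ratio per length of 0.142 for Psmb8 to Psmb5 and 0.265 for Psmb10 to Psmb7. Without any 1 of the old WT libraries (1, 4, 5, 7 or 10) the adjusted p of both was 0.0635, above the threshold. The log2 differences were then 0.8183 to 0.9352 for Psmb8 to Psmb5 and 1.1155 to 1.3050 for Psmb10 to Psmb7 (exact permutation p = 0.0159 and 0.00794 each time). With so few libraries the exact test has few possible p-values, so the lost calls do not show that a single library carried the difference.

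Among the activators, Psme1 to Psme3 was 1.61-fold higher with age (exact permutation p = 0.0238, adjusted p = 0.0714), with 1 young library (young WT 6) inside the old range, and passed only without young WT 6 (adjusted p = 0.0317). Psme2 to Psme1, the partners of a single ring, had a log2 difference of -0.07 (exact permutation p = 0.595, adjusted p = 0.693). In old KO against old WT none of the 4 ratios passed (exact permutation p = 0.214 to 0.762), and without old KO 6 the log2 difference of Psmb10 to Psmb7 turned from -0.11 to 0.11 (exact permutation p = 0.532). Against young WT, old KO liver had log2 differences of 0.62 for Psmb8 to Psmb5, 1.12 for Psmb10 to Psmb7 and 0.55 for Psme1 to Psme3 (adjusted p = 0.127, 0.0635 and 0.0762 by exact permutation). Without old KO 6 the first 2 passed, at 0.78 and 1.33 (adjusted p = 0.0476 and 0.0317 by exact permutation), and Psme1 to Psme3 did not (0.62, adjusted p = 0.0635 by exact permutation). Old KO 6 was set apart for lying nearer to young WT and was the lowest old KO library on these ratios. Its omission could therefore only widen these differences, and the passes without it are no separate support. Without young WT 6, the shallowest library, Psmb10 to Psmb7 (1.21), Psme1 to Psme3 (0.70) and Psme2 to Psme1 (-0.18) passed (adjusted p = 0.0317, 0.0238 and 0.0238 by exact permutation).

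**Figure D4:**
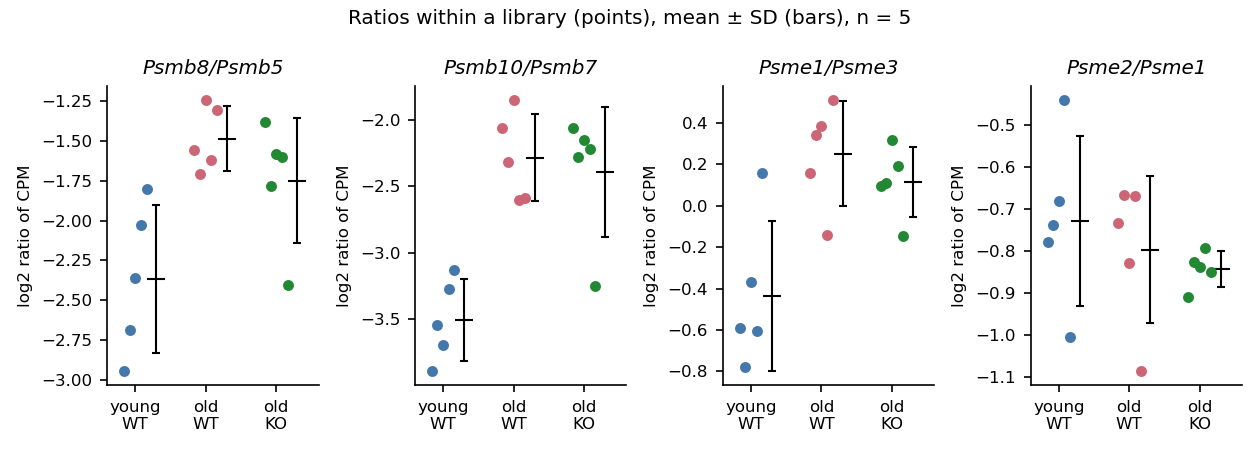
The log2 ratio of CPM is plotted for 4 pairs of genes in the 5 libraries of each group (points), with the mean ± SD beside them. Psmb8/Psmb5 and Psmb10/Psmb7 separate the old WT from the young WT libraries, Psme1/Psme3 overlaps through young WT 6, Psme2/Psme1 overlaps throughout, and old KO 6 is the lowest old KO library in the first 3 panels.

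Markers of other cells moved with age beside the genes that rose. Lymphocyte and leukocyte markers summed to 8.43 to 24 CPM in young WT, 22 to 36.9 CPM in old WT and 10.9 to 24 CPM in old KO, and 4 of 8 rose with age (Cd3e, Cd8a, Ms4a1 and Nkg7). Macrophage markers summed to 159 to 360 CPM in young WT, 184 to 499 CPM in old WT and 114 to 161 CPM in old KO. Of these, 0 of 8 passed with age. In old KO 4 of 8 were lower than in old WT, a comparison that called 0.533% of all genes in either direction. In old KO the lymphocyte sums lay within the young WT range and the macrophage sums at its lower end or below it. Marker by marker against young WT, 5 of 8 lymphocyte markers lay above zero and 3 below (median log2 fold change 0.42), with 0 called. All 8 macrophage markers lay below zero, and 4 were called lower, against 11.3% of all genes. In the same comparison Psme1, Psme2 and Psmb10 (log2 fold change 0.89, adjusted p = 0.00234) were called higher, while Psmb8 was not (0.21, adjusted p = 0.305). No marker of these lists was at 0 in all libraries. The part of these cells in the levels of Psme1, Psme2, Psmb8 and Psmb10 was not tested. Hepatocyte markers summed to 85975 to 136133 CPM in young WT, 94763 to 141588 CPM in old WT and 116422 to 150870 CPM in old KO. With age 3 of 8 fell (Apoa1, Cps1 and Serpina1e). Of the 8, 6 had a log2 fold change with age below zero and 2 above, with a median of -0.61 and a range of -3.91 to 0.18. Endothelial markers summed to 115 to 216, 76.6 to 135 and 92.8 to 111 CPM, and 2 of 4 fell with age. The part of hepatocytes and of endothelial cells in the fall of the 26S subunits was not tested. Of the stellate cell, bile duct and red blood cell markers tested, 0 of 4, 0 of 4 and 0 of 2 were called with age. Over all genes tested, 8.91% fell and 9.92% rose with age.

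Other genes of the pathway were read from lists. Outside the 38 genes and the interferon list, 8 of 38 other tested pathway genes fell with age and 4 rose, with a median log2 fold change of -0.08. That is 21.1% lower and 10.5% higher, against 8.91% and 9.92% of all genes tested. The share that rose was thus near that of all genes. Factors that assemble the core (Pomp and Psmg1 to Psmg4) had 0 of 5 called. Of 14 other proteins that bind the particle, 5 fell, among them the ubiquitin receptor Adrm1 (-0.38), the deubiquitinase Usp14 (-0.33) and the shuttle factors Rad23b (-0.30) and Ubqln2 (-0.54), with adjusted p = 0.0352, 0.0195, 0.0178 and 0.00339. The related shuttle factor Ubqln4 rose (0.41, adjusted p = 0.00905), the only riser of the 14 (7.14%, against 9.92% of all genes). Of 9 genes for ubiquitin, its activating enzymes and the segregase p97, 3 fell, namely Vcp (p97 itself, -0.31) and its cofactors Ufd1 (-0.44) and Nploc4 (-0.33), with adjusted p = 0.028, 0.00173 and 0.00933.

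Of the 6 genes for NRF1 and the proteins that process it, 1 rose, Nfe2l2 (0.30, adjusted p = 0.0173), which encodes the related factor NRF2. With 1 of 6 called, the list is too short to set apart from the 9.92% of all genes that rose. Nfe2l1, outside the rule for named genes and chosen after its value was seen, had a change of 0.22 (adjusted p = 0.396). In the interferon-gamma list, 3 of 13 genes rose (23.1%, against 9.92% of all genes) and 10 were not called. This list too is short to be set apart from that share. The 3 that rose were Irf1 (0.48, adjusted p = 0.0358), the peptide-loading gene Tapbp (0.35, adjusted p = 0.0209) and the chemokine gene Cxcl10 (1.41, adjusted p = 0.0129). That list had a median of 0.37 with age and -0.33 in old KO against old WT. None of these pathway genes passed in old KO against old WT, where 0.533% of all genes did, so that absence is no result about them.

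**Figure D5:**
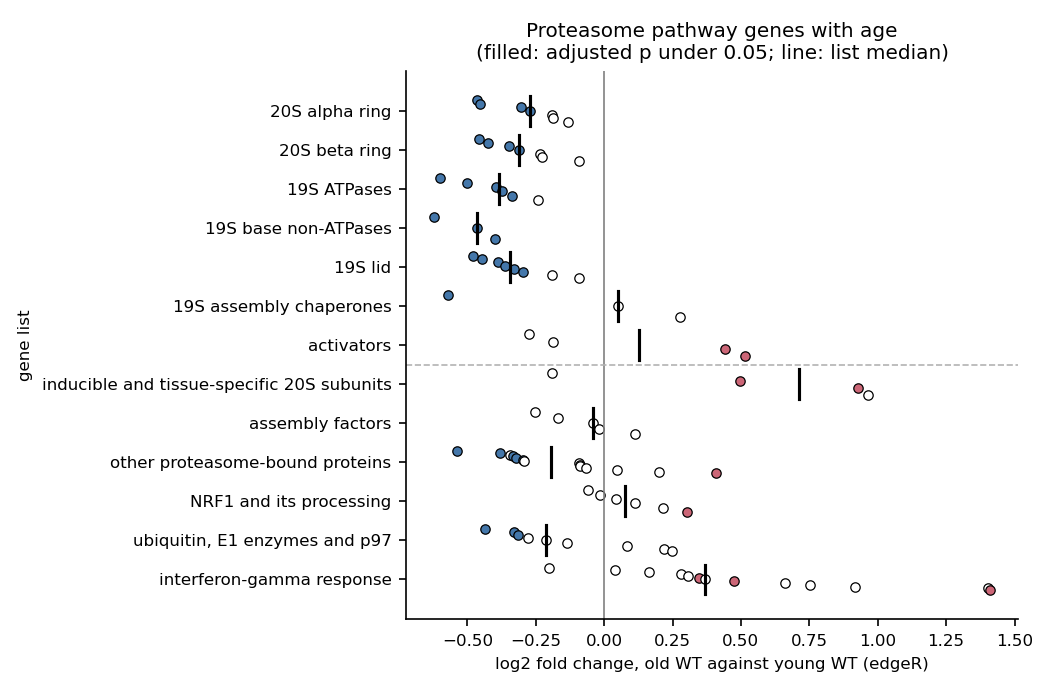
Log2 fold changes of old WT against young WT liver are drawn for the 38 genes by role (above the dashed line) and for other genes of the pathway (below it), 1 symbol per gene, filled where the adjusted p was under 0.05, with a bar at the median of each list. The medians of the 5 groups of 26S subunits lie between -0.47 and -0.27, and those of the activators and of the inducible subunits above zero.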

How the data were processed

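Whole-liver RNA was measured by stranded poly(A) single-end RNA sequencing. The authors mapped reads to mm9 with TopHat (TopHat2 2.0.11 in the submitters' processing notes) and counted them by HTSeq, and deposited these counts without normalization, 1 column per mouse. The annotation release and the strand setting are not given in the sources used here, so counts of Psmd1, Psmc3, Psmd13, Psma4 and Psmb5, which overlap other genes, and of Psmb9 are uncertain. The count of Psmd14 is uncertain too, since a second identifier of that name, at 0 reads, overlaps it (chromosome 2: 61549751 to 61558658 on mm9). Processed copies of Psme2, Psmb5, Psmb6 and Psmb7 held 0 to 8 reads per library.

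Groups came from the sample titles, and the labels give no batch. Counts were scaled by TMM, filtered by filterByExpr and tested with edgeR 4.0.16 (R 4.3.3) by quasi-likelihood on all 15 libraries (common biological coefficient of variation 0.189), with Benjamini-Hochberg adjustment over 14258 genes. CPM uses TMM-scaled totals, and SE is that of the fitted log2 fold change. Values per kb and per length divide by the joined annotated exons of a gene, and depend on that annotation. The fit was tested on simulated data.

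Ratios were tested by exact permutation; the planned ratio of Psmb9 to Psmb6 could not be computed because Psmb9 is listed at 0. Alternatives were DESeq2 1.42.0, limma 3.58.1 (voom), RLE and upper quartile scaling, other filters, only the libraries compared, a replicate block, and leaving out each library. The genes, lists and tests were chosen with earlier results of these data known. Values in every library were given for the 10 genes of smallest adjusted p with age, the 3 of smallest p by genotype, and Psmb5, Psme1 and Psme2. Other pathway genes were named where called with age or genotype, apart from an item that is not reported here. Hbb-bt, on the red blood cell list, was not matched.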

Additional observations from a re-analysis of the deposited data

Results flagged for a closer look

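Of 132 sets of 5 libraries examined with Dixon's test, 9 held a library far from the other 4. Chance gives about 1 in 20, so the count is near that share. Old KO 6 accounted for 7 of the 9. The sets come from the same libraries, so these 7 are not independent and concern a single mouse. In that library the levels of Psmd6 (77 CPM, others 53.4 to 60.2), Psmd12 (102 CPM, others 78.2 to 82.7), Psmd9 (43.9 CPM, others 28.8 to 31.1) and Psme4 (200 CPM, others 144 to 155) were high. The inducible subunits were low there, with 8.68 CPM for Psmb8 (others 11.4 to 12.2) and 12.1 CPM for Psmb10 (others 18.7 to 21.2), and so was the log2 ratio of Psmb10 to Psmb7 (-3.25, others -2.28 to -2.06). On each of these values old KO 6 lay nearer to young WT than the other old KO libraries did. Without old KO 6, 0 of the 38 genes passed in old KO against old WT, as with it.

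The other 2 were young WT libraries. Psmc5 was at 76.4 CPM in young WT 1 (others 63.9 to 67.3), and Psmd7 at 97 CPM in young WT 6 (others 71.7 to 76.7).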

How the results depend on the processing

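The 38 genes had 183 or more reads in every library. Counting error, largest for its level in Psmd10 (183 to 351 reads), was not set against the spread between mice gene by gene. With age, 25 genes were called. The count was 17 (without young WT 1) to 28 (without old WT 10) when single libraries were left out, and 22 to 27 with DESeq2, limma voom, other scalings, other filters or only the 10 libraries compared. With the replicate number as a block it was 2 (Psmc1 and Psmd2), both lower. Deviations of same-numbered libraries correlated at -0.153 to 0.077. Differently numbered libraries were not correlated for comparison, so whether the numbers pair the mice is not settled. Numbers 3, 7 and 10 each occur in a single library, which the block leaves out of the group differences. Genes called under all alternatives but the block numbered 17, and 0 reversed. In old KO against old WT the count was 0 under every alternative run. In old KO against young WT it was 19, 9 with the block (7 lower and 2 higher), and 12 to 22 when single libraries were left out; the calls lower ranged from 10 to 19.

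Leaving out single libraries, the log2 difference with age was 0.73 to 1.02 for Psmb8 to Psmb5, 1.12 to 1.32 for Psmb10 to Psmb7, 0.60 to 0.84 for Psme1 to Psme3, and -0.14 to 0.0035 for Psme2 to Psme1.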
